A study of Mus musculus with 14 samples.

Results

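The BCL2 family decides whether a cell releases cytochrome c from its mitochondria and starts apoptosis. The 10 members described here, of 13414 genes listed for tumours and 11793 listed for cultured cells, were chosen by their gene symbols. They are the pro-survival genes Bcl2, Bcl2l1 (which encodes BCL-XL) and Mcl1, the pore-forming effectors Bax and Bak1, and the BH3-only genes Bad, Bid, Bcl2l11 (BIM), Bbc3 (PUMA) and Pmaip1 (NOXA). All 10 were listed for tumours and 9 for cells, where Pmaip1 was not listed. Pro-survival proteins hold the effectors in check, and BH3-only proteins, which are raised or activated by lost growth factors, p53 or other stresses, bind the pro-survival proteins and free the effectors to open the outer mitochondrial membrane. Many cancers depend on one or more of the pro-survival proteins, and drugs that fill their BH3-binding groove exist for several of them.

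The data were 3′ end counts (bulk MARS-seq) from 14 libraries of 4T1 cells, a mouse line used as a model of triple-negative breast cancer. One pool of 4T1 cells carried a doxycycline-inducible short hairpin RNA against TAZ (shTAZ), a coactivator of the TEAD transcription factors in the Hippo pathway that is encoded by Wwtr1. The other pool carried a scrambled hairpin under the same control (shC). There were 4 shC and 4 shTAZ tumours, and 3 shC and 3 shTAZ cultures. Cells of both lines had doxycycline for 48 h. They were then taken for RNA, or were injected into the mammary fat pad of female BALB/c mice aged 8 weeks, which were fed doxycycline in their chow (625 mg/kg). Tumours were taken 6 weeks after injection. Thus both lines, controls included, carried a lentiviral hairpin and were exposed to doxycycline, although the sample labels name the genotype as WT and give no treatment. The tumours were sequenced whole, so that their RNA came from 4T1 cells and from cells of an immunocompetent host. The study asked how TAZ affects growth and apoptosis of these tumours, and the comparisons here ask whether BCL2 family mRNA differed with the hairpin, in tumours and in culture, and between tumours and culture.

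The hairpin that defines the shTAZ line and its control are shown because they are the only designed difference between shTAZ and shC. Both are read 5′ to 3′ from the study's list of sequences.
shTAZ: gacgggtggaggttcacat
shC: cacacaacatgtaaaccaggga
The 19 bases of the shTAZ hairpin matched, in antisense and without a mismatch, 2 transcripts of Wwtr1 at 57501788 to 57501806 on chromosome 3 of GRCm38, in the coding part of exon 3 of 7. They matched no transcript of the 10 members. The 22 bases of shC matched no mouse transcript of the annotation (GENCODE M21).

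Levels are given as CPM, the counts of a gene scaled to a common library size after TMM normalization over all 14 libraries. The total count was 1659736 to 22364483 per tumour and 2243071 to 14815813 per culture, and the deepest library was shC tumour 1. Wwtr1 was the check of the labels. It was at 61.4, 29.9, 43.8 and 28.2 CPM in shC tumours 1 to 4 and at 22.8, 13.7, 17.9 and 26.4 CPM in shTAZ tumours 1 to 4. In cells it was at 42.8, 31.2 and 27.4 CPM in shC and at 8.53, 11.0 and 6.38 CPM in shTAZ. Thus every shTAZ library was below every shC library of its kind. The log2 fold change of shTAZ over shC was -1.03 ± 0.30 (SE, adjusted p = 0.923) in tumours and -2.25 ± 0.35 (SE, adjusted p = 0.0647) in cells, in edgeR's quasi-likelihood test over all genes. Neither value passed an adjusted p of 0.05. In cells the value passed with DESeq2 (adjusted p = 1.35e-05), when no genes were filtered out (0.0339), when each library had to hold 10 or more counts of a gene (0.0367) and with a surrogate variable from normalized counts (0.0351). It also passed when the replicate number was fitted as a block in place of the surrogate variable (-1.96, adjusted p = 0.00539) and when shC cells 3 were left out (-2.42, adjusted p = 0.0128). It did not pass without a surrogate variable (-1.99, adjusted p = 0.99997) or with RLE size factors in place of TMM (0.0585). Nor did it pass when any other single culture was left out, with -1.67 (adjusted p = 0.779) without shC cells 1. In tumours it passed in no setting (adjusted p = 0.616 with DESeq2).

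The tumours and cultures differed in more than the place where the 4T1 cells grew. The summed CPM of 3 leukocyte markers was 1110 to 2076 in tumours and 3.34 to 8.53 in cells, where Ptprc was not listed, that of 6 macrophage markers was 4150 to 10684 and 21.3 to 60.9 (Adgre1 not listed in cells), and that of 5 fibroblast markers was 1407 to 4241 and 2.03 to 9.26 (Dcn not listed in cells). The sum of 5 epithelial markers (Epcam, Krt8, Krt18, Cdh1 and Cldn7), which check the 4T1 label, was 3059 to 4738 in tumours and 3033 to 7224 in cells, so that these ranges overlapped. Single markers did not move as 1 in tumours over cells. In the shC line 2 passed as higher and 1 as lower in tumours (log2 fold changes -1.61 to 1.97). In the shTAZ line 0 passed as higher and 2 as lower (-1.86 to 0.76). Of 3 keratinocyte markers the sum was 3043 in shTAZ tumour 3 and 1362 in shTAZ tumour 4, and at most 42.4 in every other library. The library codes of tumours 3 and 4 begin with FM in both the shTAZ and the shC group, and those of tumours 1 and 2 with FG. The sum of 3 skeletal muscle markers was 286.9 in shC tumour 2 and at most 3.51 elsewhere. Between the tumour groups the medians also differed, with overlapping ranges. From shC to shTAZ tumours they went from 1229 to 1766 for leukocyte sums and from 6079 to 8509 for macrophage sums. The epithelial median went from 3971 to 3271. All 5 epithelial markers were nominally lower in shTAZ tumours (log2 fold changes -1.91 to -0.03). Of 6 macrophage markers, 5 were higher and 1 lower. None of these markers passed. Their part in the members' values was not tested. In whole tumours, a change in the number of cells of a type and a change in RNA per cell cannot be told apart.

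**Figure D1:**
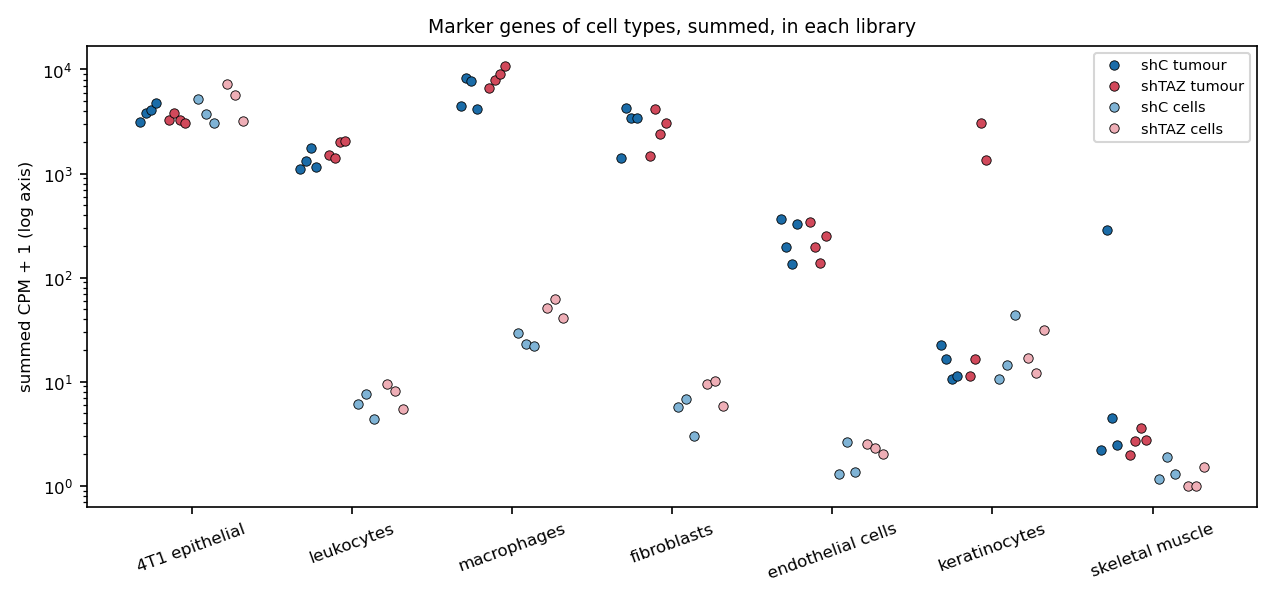
Summed CPM + 1 of the marker genes of 7 cell types (log axis), with 1 point for each of the 14 libraries, coloured by group. Leukocyte, macrophage and fibroblast markers were above 1000 CPM in every tumour and below 61 CPM in every culture, while the epithelial sums overlapped, and shTAZ tumours 3 and 4 stood apart by their keratinocyte markers.

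The first question was whether BCL2 family mRNA differed between shTAZ and shC tumours. Of the 9 members tested, 6 were nominally higher and 3 lower in shTAZ tumours, and none passed an adjusted p of 0.05 in edgeR (0% of 9196 genes passed). None of the 9 had an unadjusted p under 0.05 either, against 366 of all genes (3.98%), and DESeq2 called 0 members and 4 of all genes. The members' median log2 fold change was 0.03, and that of all genes was -0.01. The adjusted p of the members was 0.923 to 0.999. Overlap of the shC and shTAZ groups, given below for tumours and for cells, was not counted over all genes. The intervals of the difference bound what these tumours can show. For Mcl1 the 95% interval of the log2 fold change was -0.34 to 0.36, for Bcl2l1 -0.11 to 0.60 and for Bcl2 -0.70 to 0.38.

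Bcl2l1, whose product binds BAX, BAK and several BH3-only proteins, was at 145, 164, 155 and 182 CPM in shC tumours 1 to 4 and at 179, 149.9, 207 and 233 CPM in shTAZ tumours 1 to 4. The 2 highest values were those of shTAZ tumours 3 and 4, the tumours with keratinocyte markers, and the groups overlapped. Their difference was 0.24 ± 0.16 (SE, adjusted p = 0.923) on the log2 scale (exact two-sided permutation test p = 0.200, where 4 against 4 can reach 0.0286). Bcl2, which guards lymphocytes and many epithelia, was at 44.9, 78.6, 64.0 and 74.2 CPM in shC and at 80.9, 62.5, 44.2 and 45.3 CPM in shTAZ tumours. Low values came from shC tumour 1 and from shTAZ tumours 3 and 4, so that both groups spanned nearly the same range. The part that the keratinocyte markers play in these values was not tested. In the shTAZ group these markers coincide with the FM library codes and cannot be told apart from them.

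Mcl1, which encodes a short-lived pro-survival protein, was at 240.3, 175, 193 and 166 CPM in shC and at 181, 175, 205 and 224 CPM in shTAZ tumours, and the log2 difference of 0.01 ± 0.16 (SE) was smaller than its error. Of the effectors, Bax had a mean of 170.2 ± 38.9 CPM (mean ± SD, n = 4) without the TAZ hairpin and of 196 ± 8.30 CPM with it, and Bak1 was at 112 ± 14.8 CPM and 121 ± 23.2 CPM. Both groups overlapped for either gene.

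The BH3-only genes gave the same picture in tumours. Bcl2l11, a FOXO target in several tissues, was at 47.3, 48.3, 69.7 and 51.2 CPM in shC and at 40.0, 46.7, 59.6 and 44.0 CPM in shTAZ tumours (-0.19 ± 0.20 SE, adjusted p = 0.928). For shC and then shTAZ tumours, Bbc3, a p53 target, was at 36.2 ± 3.68 CPM (mean ± SD, n = 4) and 34.9 ± 9.37 CPM. Bad, which growth factor signalling keeps inactive by phosphorylation, was at 111 ± 33.2 CPM and 117 ± 9.76 CPM, and Bid, which caspase 8 cleaves downstream of death receptors, at 42.9 ± 7.34 CPM and 44.0 ± 10.9 CPM. In each case the groups overlapped.

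Pmaip1, whose product preferentially binds MCL1 and which lies on chromosome 18 from 66458533 to 66465565, plus strand, in GRCm38, was listed for tumours only. Its counts were 121, 13, 6 and 4 in shC tumours 1 to 4 and 4, 4, 2 and 2 in shTAZ tumours 1 to 4, which is 5.19, 4.62, 2.63 and 1.48 CPM and 1.30, 1.71, 1.28 and 0.880 CPM. It did not pass the filter on low counts, so that edgeR gave no value for it. The 3 highest values were those of shC tumours 1 to 3, whereas shC tumour 4 lay within the shTAZ range (exact two-sided permutation test p = 0.0571). With 2 to 4 counts in each shTAZ tumour, a difference could not be sized at this depth. Every gene in the table for cells had a total of at least 6 counts, and no level of Pmaip1 in cells is given here.

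In cultured cells, 8 of the 9 members tested were nominally higher in shTAZ and 1 was lower, and again none passed an adjusted p of 0.05 (0% of 9828 genes passed in edgeR). Bbc3 alone had an unadjusted p under 0.05, 1 of 9 members against 5.05% of all genes (496), and DESeq2 called 0 members and 3 genes. The median log2 fold change was 0.32 for the members and -0.02 for all genes. The directions rested on single cultures. Without shC cells 1, 3 of 9 members were higher (median -0.15), without shTAZ cells 3, 6 of 9 (median 0.0762), and without shC cells 2, 6 of 9 (median 0.30). This fit held a surrogate variable, which was estimated from counts not scaled for library size. It followed the total count of the cultures (correlation 0.93 over 6 cultures, given as a description). The total count was 6820673 to 14815813 in shC and 2243071 to 7959163 in shTAZ cultures, so that this variable is not fully separate from the hairpin. Without a surrogate variable 9 of 9 members were higher (median 0.15). When it was estimated from normalized counts, a setting chosen after seeing the data, 8 of 9 were higher (median 0.24). With the replicate number as a block in place of the surrogate variable, 8 of 9 were higher (median 0.14), and 6 genes and 0 members passed. The log2 fold change of Bbc3 then went from 0.60 to 0.29 ± 0.22 (SE, adjusted p = 0.966). In the fit with the surrogate variable but without shC cells 3, 69 genes and 0 members passed.

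Bcl2l11 was at 28.9, 22.3 and 17.8 CPM in shC cells 1 to 3 and at 32.1, 27.3 and 45.9 CPM in shTAZ cells 1 to 3. The shTAZ culture was the higher one for each of the 3 replicate numbers, but the groups overlapped. The log2 fold change was 0.68 ± 0.32 (SE, adjusted p = 0.991), with an unadjusted p of 0.0507 in edgeR, and 0.64 with the replicate block (adjusted p = 0.889). Bbc3 was at 46.5, 53.3 and 84.8 CPM in shC and at 63.2, 62.6 and 95.5 CPM in shTAZ cells, again higher in shTAZ for each number and with overlapping groups (0.60 ± 0.27 SE, adjusted p = 0.935, unadjusted p = 0.0374 in edgeR). The sign of the Bbc3 value turned without shC cells 1 (-0.18) or shTAZ cells 3 (-0.12). The exact two-sided permutation test, which did not use the replicate numbers, gave p = 0.200 for Bcl2l11 and p = 0.400 for Bbc3. With 3 against 3 it cannot go below 0.1.

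For the other 7 members the groups overlapped in culture. Bax ranged from 134 to 274 CPM in shC and from 125 to 265 CPM in shTAZ cells, and Bak1, which spread little in shC cells (68.3 to 73.5 CPM), ranged from 48.4 to 111 CPM in shTAZ. For control and then TAZ hairpin cultures, Bcl2l1 was at 233 ± 34.0 CPM (mean ± SD, n = 3) and 240.0 ± 11.9 CPM, Mcl1 at 100.1 ± 18.8 CPM and 110.0 ± 26.9 CPM, and Bcl2 at 20.3 ± 5.66 CPM and 22.9 ± 6.48 CPM. Bad was at 69.0, 49.8 and 54.4 CPM in shC cells 1 to 3 and at 103, 54.7 and 63.0 CPM in shTAZ cells 1 to 3, higher in shTAZ for each number like Bcl2l11 and Bbc3, and its difference was 0.17 ± 0.29 (SE, adjusted p = 0.997). Bid was at 63.3 ± 20.5 CPM and 65.0 ± 18.9 CPM.

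**Figure D2:**
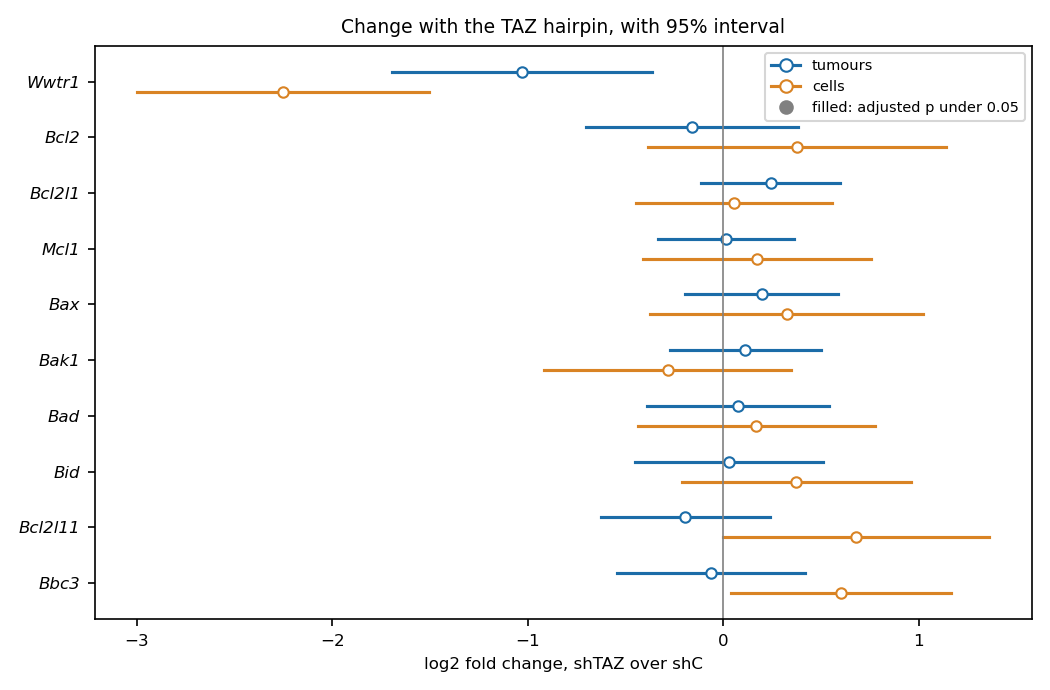
Log2 fold change of shTAZ over shC for Wwtr1 and the 9 members tested, in tumours (4 against 4) and in cells (3 against 3), with lines for the 95% interval of edgeR's fit. No symbol is filled because none passed an adjusted p of 0.05, and the members lay between -0.28 and 0.68.

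Whether the change with the hairpin differed between tumours and cells was tested with an interaction term over all 14 libraries. No member passed, nor did any of 9194 genes (0%) in edgeR or in DESeq2. At an unadjusted p under 0.05 there were 1 of 9 members and 227 of all genes (2.47%). That member was Bcl2l11, whose change in tumours minus that in cells was -0.82 ± 0.36 (SE, unadjusted p = 0.0363, adjusted p = 1.00 in edgeR). The adjusted p of every member was 1.00. The comparisons of the hairpin in tumours and in cells enter this term, so that it adds no independent evidence on either.

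Genes that act with the BCL2 family were looked at in 7 lists of 65 genes in all: other family members, the apoptosome and caspases, inhibitors of apoptosis, death receptors, p53 and its targets, stress and FOXO regulators, and regulators of MCL1 turnover. None passed an adjusted p of 0.05 with the hairpin in edgeR, of 48 tested in tumours and 53 in cells. At an unadjusted p under 0.05 there were 0 in tumours and 2 in cells, and DESeq2 called 0 in both. The most abundant tested gene of 6 of the lists is given with its log2 fold change. Birc5 (survivin), which is made by dividing cells, was at 0.60 ± 0.42 (SE) in tumours and -0.50 ± 0.28 in cells, and the BCL2 relative Bok at 0.30 ± 0.22 and -0.34 ± 0.26. The values were 0.05 ± 0.17 and -0.22 ± 0.23 for the TNF receptor gene Tnfrsf1a, and 0.29 ± 0.47 and -0.01 ± 0.23 for the p53 target Perp. For Atf4, the transcription factor of the integrated stress response, they were -0.23 ± 0.19 and 0.09 ± 0.22, and for Huwe1, a ubiquitin ligase of MCL1, -0.47 ± 0.31 and 0.14 ± 0.31. In cells the sign of each of these 6 changed with the replicate block in place of the surrogate variable (Birc5 0.06, Bok 0.10, Tnfrsf1a 0.03, Perp 0.20, Atf4 -0.13 and Huwe1 -0.16).

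Larger differences were seen between tumours and cultures of the same line. In the shC line 4 of 9 members rose in tumours (Bcl2, Mcl1, Bad and Bcl2l11) and 2 fell (Bcl2l1 and Bbc3), and in the shTAZ line 3 rose (Bcl2, Mcl1 and Bak1) and 1 fell (Bbc3), at an adjusted p under 0.05 in edgeR. These counts stand against a high background. Of all 9194 genes tested, 38.4% passed in the shC line (20.8% higher and 17.6% lower in tumours) and 30.5% in the shTAZ line (16.3% higher and 14.2% lower). How many of all genes separate fully between tumours and cultures was not counted, so that the overlaps given below describe single members only. Without shTAZ tumours 3 and 4, 1541 genes in place of 2807 and 2 members in place of 4 passed in the shTAZ line. Without shC tumours 1 and 2, 2601 genes in place of 3531 and 4 members in place of 6 passed in the shC line. Both pairs were chosen after seeing the data. Each pair holds all tumours of its line whose library codes share a prefix, FM for shTAZ tumours 3 and 4 and FG for shC tumours 1 and 2. The labels do not say what the prefix stands for. The median log2 fold change was 0.64 for the members and -0.01 for all genes in shC, and 0.42 and -0.05 in shTAZ. Tumours and cultures came from separate count tables, and tissue, host cells, time on doxycycline and library preparation cannot be told apart in this comparison.

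Among the pro-survival genes, Bcl2 and Bcl2l1 moved in opposite directions in the shC line. Positions are those of GRCm38. Bcl2 (chromosome 1 from 106538178 to 106714274, minus strand) was at 18.3, 15.9 and 26.6 CPM in shC cells against 44.9 to 78.6 CPM in shC tumours, and at 15.6, 27.8 and 25.4 CPM in shTAZ cells against 44.2 to 80.9 CPM in shTAZ tumours. All 8 tumours were above all 6 cultures. It rose 3.21-fold in shC (log2 1.68 ± 0.30 SE, adjusted p = 4.05e-04) and 2.53-fold in shTAZ (log2 1.34 ± 0.31 SE, adjusted p = 0.00372). The 95% intervals on the log2 scale were 1.04 to 2.32 and 0.69 to 1.99. Bcl2 is expressed by lymphocytes among other cells, and the summed CPM of the 4 T cell markers listed was 10.9 to 24.1 in tumours, with none of them listed in cells. Their part in the Bcl2 difference was not tested.

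Bcl2l1 (chromosome 2 from 152780668 to 152831728, minus strand) was lower in tumours. It was at 225, 203 and 269.8 CPM in shC cells and 145 to 182 CPM in shC tumours, with no overlap (-0.53 ± 0.18 SE, adjusted p = 0.0305). This call was lost without shC tumour 1 (adjusted p = 0.0691), shC tumour 2 (0.0552), shC tumour 3 (0.0660), shC cells 1 (0.0539) or shC cells 3 (0.121), with log2 values of -0.62 to -0.41 when any 1 library was left out. It was also lost without both shC tumours 1 and 2 (0.140). In the shTAZ line it was at 250.4, 243 and 227 CPM in cells and 149.9 to 233 CPM in tumours, and the difference did not pass (-0.32 ± 0.18 SE, adjusted p = 0.195).

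Mcl1 (chromosome 3 from 95658788 to 95663176, plus strand) was at 107, 78.8 and 114 CPM in shC cells and at 83.8, 138 and 109 CPM in shTAZ cells, and at 166 to 240.3 and 175 to 224 CPM in the corresponding tumours. No culture reached the lowest tumour. The rise was 1.94-fold (95% interval 1.41 to 2.65) in shC (0.95 ± 0.21 SE, adjusted p = 0.00238) and 1.78-fold (95% interval 1.30 to 2.45) in shTAZ (0.83 ± 0.22 SE, adjusted p = 0.00802). Without both shTAZ tumours 3 and 4, the shTAZ value was 0.69 with an adjusted p of 0.0876. Counts within a library show the shift without any scaling between libraries. There were 0.388 to 0.475 Mcl1 counts per Bcl2l1 count in shC cells and 0.335 to 0.567 in shTAZ cells, against 0.912 to 1.66 in shC tumours and 0.962 to 1.17 in shTAZ tumours. Likewise there were 0.0780 to 0.0987 Bcl2 counts per Bcl2l1 count in shC cells and 0.0621 to 0.115 in shTAZ cells, against 0.310 to 0.478 and 0.195 to 0.453 in tumours. These ratios were chosen after the values were seen and are a description.

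Of the effectors, Bax (chromosome 7 from 45461697 to 45466898, minus strand) did not pass in either line (-0.18 ± 0.27 SE, adjusted p = 0.642 in shC and -0.06 ± 0.28 SE, adjusted p = 0.898 in shTAZ), and its sign in this comparison turned when single cultures were left out: it was 0.16 in shC without shC cells 3, and 0.16 and 0.01 in shTAZ without shTAZ cells 1 or 3. Bak1 (chromosome 17 from 27019810 to 27029009, minus strand) was at 72.6, 68.3 and 73.5 CPM in shC cells and at 105, 134, 103 and 105 CPM in shC tumours, all above the cultures, yet the value was just short of the threshold (0.64 ± 0.25 SE, adjusted p = 0.0530) and passed with DESeq2 (adjusted p = 0.0380), with at least 10 counts in every library (0.0421), or without shTAZ cells 1 (0.0192) or shTAZ cells 3 (0.0299). In the shTAZ line Bak1 was at 111, 64.0 and 48.4 CPM in cells and at 139, 107, 142 and 95.5 CPM in tumours, and the groups overlapped through shTAZ cells 1. It passed there by a narrow margin (0.71 ± 0.25 SE, adjusted p = 0.0438). The call was lost without any of 8 libraries: shC tumour 3 (0.0542), shC tumour 4 (0.0534), shTAZ tumour 1 (0.106), shTAZ tumour 2 (0.0511), shTAZ tumour 3 (0.109), shC cells 2 (0.0550), shTAZ cells 2 (0.140) and shTAZ cells 3 (0.192), where the values in parentheses are adjusted p. It was also lost without both shTAZ tumours 3 and 4 (0.122).

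The BH3-only genes split. Bcl2l11 (chromosome 2 from 128126038 to 128162547, plus strand) was at 17.8 to 28.9 CPM in shC cells and 47.3 to 69.7 CPM in shC tumours, with no overlap, and rose 2.35-fold (95% interval 1.61 to 3.43) there (log2 1.23 ± 0.26 SE, adjusted p = 0.00139). In the shTAZ line it was at 27.3 to 45.9 CPM in cells and 40.0 to 59.6 CPM in tumours, with overlap, and did not pass (0.42 ± 0.26 SE, adjusted p = 0.233). The test of the difference between the lines is the interaction term given above, which did not pass. Bbc3 (chromosome 7 from 16308393 to 16318205, plus strand) fell in both lines. It was at 46.5 to 84.8 CPM in shC cells and 32.6 to 39.7 CPM in shC tumours, and at 62.6 to 95.5 and 23.6 to 46.1 CPM in shTAZ cells and tumours. No tumour reached a culture of its line. The log2 fold change was -0.77 ± 0.26 (SE, adjusted p = 0.0289) in shC and -1.10 ± 0.27 (SE, adjusted p = 0.00574) in shTAZ. The shC call was lost without shC tumour 1 (adjusted p = 0.0626), shC tumour 2 (0.0636) or shC cells 3 (0.187, log2 -0.47), or without both shC tumours 1 and 2 (0.162), and the shTAZ call held without any 1 library. Within libraries there were 0.210 to 0.621 Bcl2l11 counts per Bbc3 count in shC cells and 0.437 to 0.508 in shTAZ cells, against 1.29 to 1.79 in shC and 1.19 to 1.98 in shTAZ tumours.

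Bad (chromosome 19 from 6941861 to 6951899, plus strand) was at 69.0, 49.8 and 54.4 CPM in shC cells and 72.6, 154, 108 and 109 CPM in shC tumours, where shC tumour 1 was only just above the highest culture. It rose 1.91-fold (95% interval 1.30 to 2.82) in shC (0.94 ± 0.26 SE, adjusted p = 0.0101), and the call was lost by a narrow margin without shC cells 2 (0.83, adjusted p = 0.0503). In shTAZ it did not pass (0.67 ± 0.26 SE, adjusted p = 0.0645), but passed without shC tumour 1 (adjusted p = 0.0396), shC tumour 2 (0.0496) or shTAZ cells 1 (0.0147). Bid (chromosome 6 from 120891930 to 120916853, minus strand) was nominally lower in tumours of both lines and did not pass (-0.56 ± 0.27 SE, adjusted p = 0.113 in shC and -0.57 ± 0.27 SE, adjusted p = 0.127 in shTAZ). Pmaip1 was not tested in this comparison, since it was not listed for cells.

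Promoters were read from RefSeq (GRCm38.p6), from 250 bases before to 50 after each start, and the 9 tested members had 15 of them. The core letters of the TEAD motif, GGAATG, occurred on either strand in 2 of these 15 promoters (Bcl2l1 and Mcl1), against 14.7% of all 32851 promoters, those of the FOXO motif, GTAAACA, in 2 of 15 (Bbc3 and Bcl2l11) against 3.65%, and those of AP-1, TGANTCA, in 0 of 15 against 7.81%. The 2 FOXO matches are shown because they lie in BH3-only genes that moved in opposite directions between cells and tumours of the shC line. In the shTAZ line the fall of Bbc3 passed and the rise of Bcl2l11 did not. The 2 TEAD matches are shown because TAZ acts through TEAD factors. Capitals mark the motif on the strand printed, which is the gene's own, and the motif of Bbc3 and of Mcl1 reads on the other strand.
Bcl2l11, chr2:128125788-128126087, plus strand: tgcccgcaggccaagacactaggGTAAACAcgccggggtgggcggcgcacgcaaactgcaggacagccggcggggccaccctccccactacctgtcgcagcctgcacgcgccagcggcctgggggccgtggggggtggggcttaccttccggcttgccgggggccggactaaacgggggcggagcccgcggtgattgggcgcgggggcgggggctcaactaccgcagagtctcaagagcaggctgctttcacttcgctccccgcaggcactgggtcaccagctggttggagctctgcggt
Bbc3, chr7:16310011-16310310, plus strand: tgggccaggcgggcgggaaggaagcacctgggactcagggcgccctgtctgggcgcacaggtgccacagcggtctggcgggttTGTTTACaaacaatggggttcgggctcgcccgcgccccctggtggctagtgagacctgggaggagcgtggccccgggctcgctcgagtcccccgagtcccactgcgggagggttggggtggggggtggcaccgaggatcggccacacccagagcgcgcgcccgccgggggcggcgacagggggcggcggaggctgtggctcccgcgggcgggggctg
Mcl1, chr3:95658471-95658770, plus strand: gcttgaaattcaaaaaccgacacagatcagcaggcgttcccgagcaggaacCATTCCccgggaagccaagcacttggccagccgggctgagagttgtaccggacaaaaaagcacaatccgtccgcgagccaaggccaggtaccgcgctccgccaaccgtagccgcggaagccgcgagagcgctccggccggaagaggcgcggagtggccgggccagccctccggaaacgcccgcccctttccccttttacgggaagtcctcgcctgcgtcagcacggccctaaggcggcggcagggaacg
Bcl2l1, chr2:152831679-152831978, minus strand: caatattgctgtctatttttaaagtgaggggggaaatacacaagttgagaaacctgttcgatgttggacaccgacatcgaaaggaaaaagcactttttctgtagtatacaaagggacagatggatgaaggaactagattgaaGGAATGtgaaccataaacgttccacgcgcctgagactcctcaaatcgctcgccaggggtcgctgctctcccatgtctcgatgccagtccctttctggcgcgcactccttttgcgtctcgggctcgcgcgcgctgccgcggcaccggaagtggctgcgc
The median GC content was 65.7% in the members' promoters and 52.7% in all promoters, so that the shares are not matched on base composition. A match is a run of letters and no binding was measured.

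Some members share genomic sequence with other genes of the annotation. Bcl2 overlaps Mir3473f and Gm37053, Bax overlaps Gm45808 and Bid overlaps Gm44260 on the same strand. On the opposite strand Bcl2 overlaps D630008O14Rik, Bak1 overlaps Ggnbp1, Bad overlaps Gpr137, and Bid overlaps Bcl2l13 and Gm17812. The strand setting of the counting is not given in the sources used here, so that reads from these pairs may not have been separated, and the values of these members are uncertain to that extent.

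**Figure D3:**
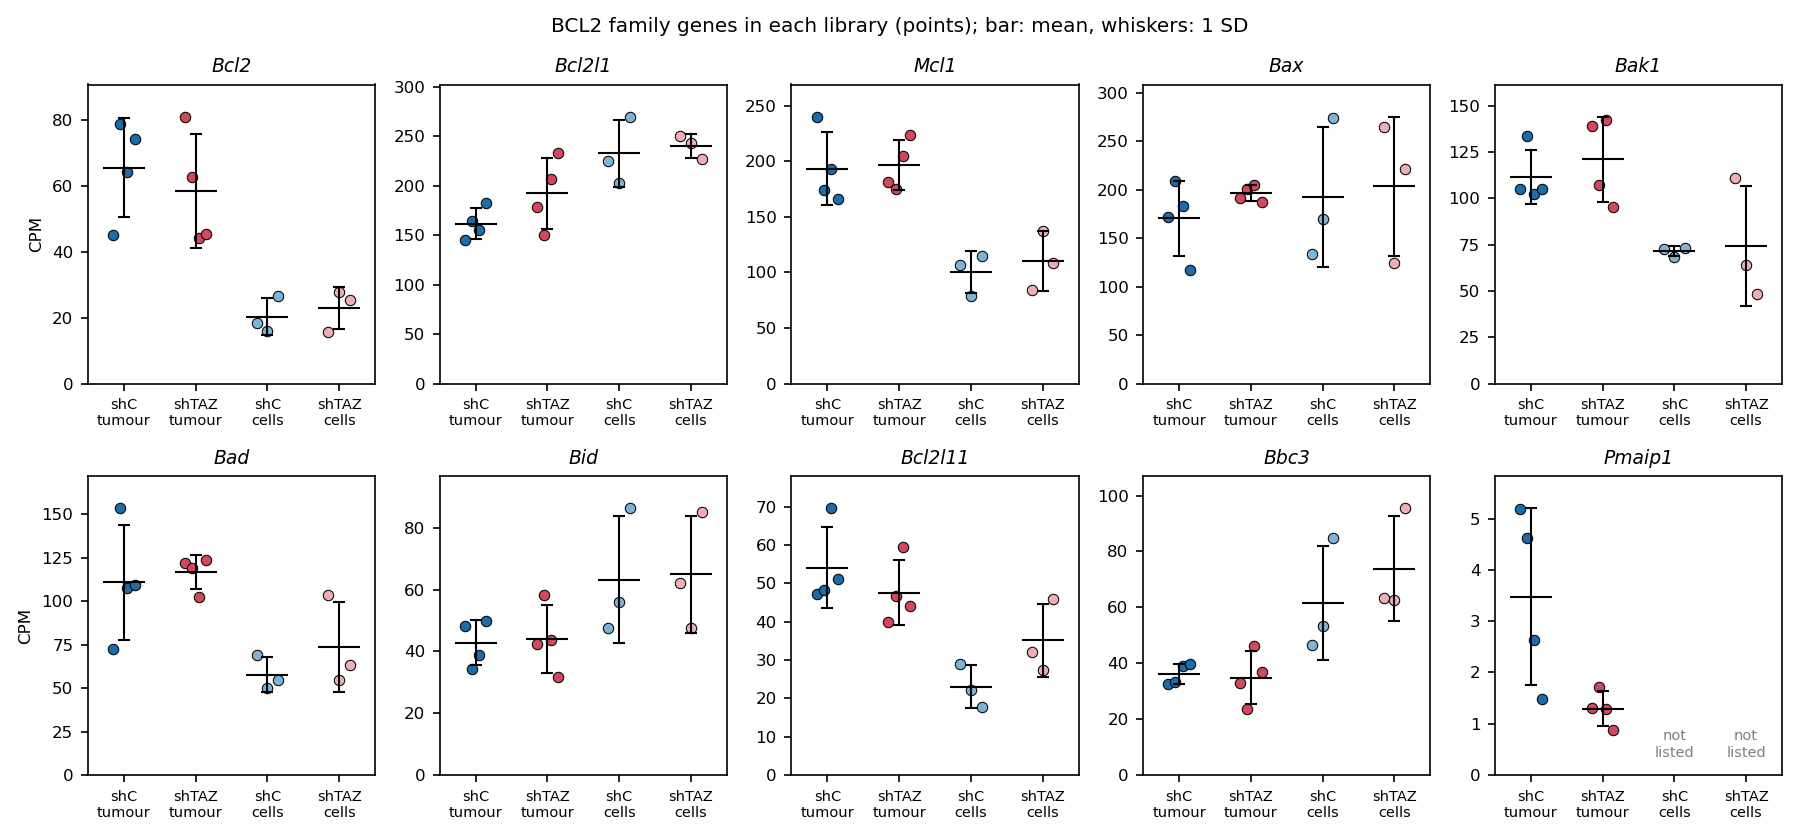
CPM of the 10 members in each of the 14 libraries (points) by group, with the mean (bar) and 1 SD (whiskers). Bcl2 and Mcl1 were higher in all 8 tumours than in all 6 cultures and Bbc3 was lower in every tumour than in the cultures of its line, while shC and shTAZ groups of the same kind overlapped for every member. How many of all genes separate or overlap in these ways was not counted.

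**Figure D4:**
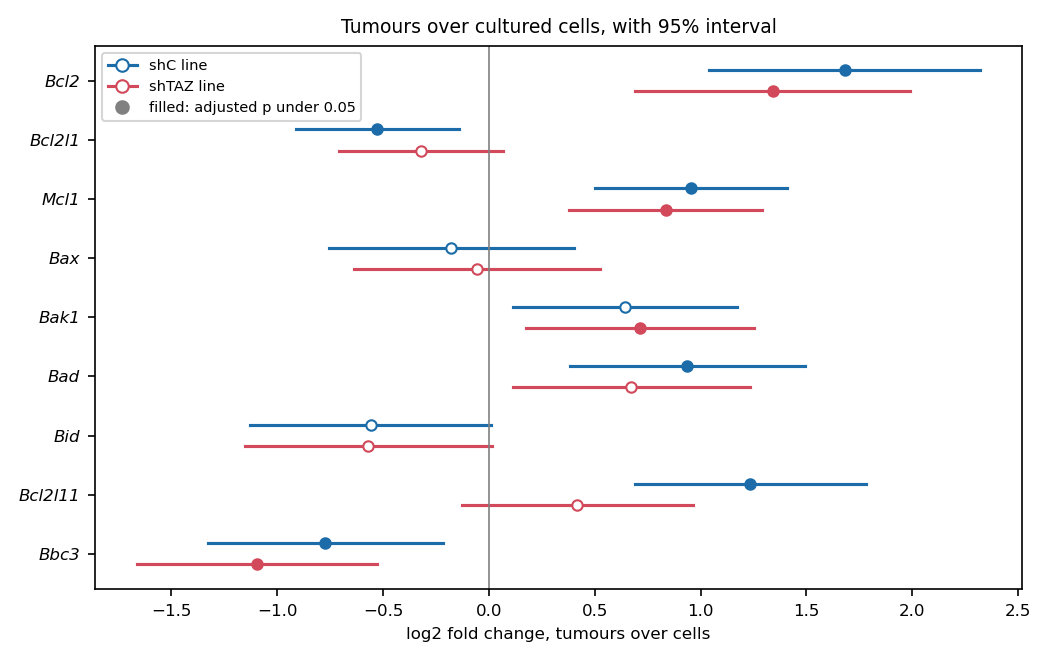
Log2 fold change of tumours over cultured cells for the 9 members tested, in the shC line and in the shTAZ line, with the 95% interval of edgeR's fit and filled symbols for an adjusted p under 0.05. Bcl2 was highest at 1.68 and 1.34 and Bbc3 lowest at -0.77 and -1.10, and Bcl2, Mcl1 and Bbc3 passed in both lines.

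The share of the family's counts that each pro-survival gene took restates the levels above in another form and adds no independent evidence. Of the counts of the listed members (9 in cells and 10 in tumours), Mcl1 took 11.0 to 14.3% in shC cells and 16.9 to 26.3% in shC tumours. Bcl2 took 2.21 to 2.66% and 4.92 to 8.28%, and Bcl2l1 26.9 to 30.1% and 15.9 to 20.3%. In the shTAZ line these were 8.49 to 17.4% and 17.9 to 21.9% for Mcl1, 1.58 to 3.52% and 4.18 to 8.01% for Bcl2, and 24.7 to 30.7% and 15.9 to 22.8% for Bcl2l1. Only the shares of the same gene are compared here. The summed CPM of the listed members was 718 to 1001 in shC cells and 789 to 987 in shTAZ cells, against 896 to 1035 and 945 to 1056 in tumours, so that the members' sum overlapped between tumours and cultures.

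Of the 65 genes of the 7 lists, 51 were tested between tumours and cells. In the shC line 21 passed and in the shTAZ line 17, which is to be read against the 38.4% and 30.5% of all genes. Of 8 other family members tested, 2 rose and 0 fell in each line, with a median log2 fold change of 0.53 in shC and 0.30 in shTAZ. Bmf, a BH3-only gene whose product is released from the cytoskeleton when cells detach, had the largest rise of the lists at 3.59 ± 0.39 in shC (SE, adjusted p = 2.28e-06) and 3.75 ± 0.42 in shTAZ (4.77e-06). Its level was 2.03 to 7.03 CPM in the cultures and 32.7 to 57.3 CPM in the tumours. Bnip3, a hypoxia-inducible mitophagy gene, was at 1.58 ± 0.60 in shC (SE, adjusted p = 0.0463) and 1.17 ± 0.62 in shTAZ (0.162), and Bcl2l12 at 0.92 ± 0.38 in shC (SE, adjusted p = 0.0653) and 1.32 ± 0.41 in shTAZ (0.0229). The Bnip3 value rested on single libraries, at 0.52 without shC tumour 1 (adjusted p = 0.366) and its call was lost without any 1 of shC tumour 1, shTAZ tumour 1, shTAZ tumour 3, shTAZ tumour 4, shC cells 1, shC cells 2, shC cells 3 or shTAZ cells 1. That of Bcl2l12 was lost without any 1 of shTAZ tumour 1, shTAZ tumour 3, shTAZ cells 2 or shTAZ cells 3 (adjusted p 0.0511 to 0.101), or without both shTAZ tumours 3 and 4 (0.0938). That of Bnip3 was lost without both shC tumours 1 and 2 (0.235). Bcl2a1a, a pro-survival relative found in leukocytes, was at 0.214 to 13.1 CPM in tumours and not listed for cells.

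Of 14 genes of the apoptosome and caspases, 2 rose and 4 fell in shC, and 2 rose and 3 fell in shTAZ, with a median of -0.27 and -0.36. Apaf1, the scaffold of the apoptosome, was at 1.44 ± 0.27 in shC (SE, adjusted p = 5.41e-04) and 0.82 ± 0.27 in shTAZ (0.0311). The voltage-dependent anion channels of the outer mitochondrial membrane fell in both lines, Vdac1 with -0.85 ± 0.19 in shC (SE, adjusted p = 0.00253) and -0.81 ± 0.19 in shTAZ (0.00500), Vdac2 with -1.14 ± 0.29 in shC (SE, adjusted p = 0.00586) and -1.13 ± 0.29 in shTAZ (0.00875) and Vdac3 with -1.01 ± 0.29 in shC (SE, adjusted p = 0.0115) and -1.20 ± 0.31 in shTAZ (0.00758). Htra2, a mitochondrial protease, was at -0.71 ± 0.17 in shC (SE, adjusted p = 0.00384) and -0.39 ± 0.17 in shTAZ (0.0914). Casp6, at 1.04 ± 0.40 in shC (SE, adjusted p = 0.0490) and 0.90 ± 0.41 in shTAZ (0.108), and Casp9, at 0.53 ± 0.32 in shC (SE, adjusted p = 0.215) and 0.97 ± 0.35 in shTAZ (0.0469), were close to the threshold, and the call of Casp6 was lost without any 1 library (adjusted p 0.0555 to 0.166) other than shC cells 1, shTAZ cells 2 or shTAZ cells 3. That of Casp9 was lost without any 1 library (adjusted p 0.0505 to 0.143) other than shC tumour 1, shTAZ tumour 2, shC cells 3 or shTAZ cells 1. The call of Apaf1 in shTAZ was lost without any 1 of shTAZ tumour 1, shTAZ tumour 2, shTAZ tumour 4, shTAZ cells 1 or shTAZ cells 3 (adjusted p 0.0505 to 0.118), and that of Vdac3 in shC without shC cells 2 (0.0776). Without both shTAZ tumours 3 and 4, the shTAZ calls of Vdac1 (adjusted p = 0.0657), Vdac2 (0.0894), Apaf1 (0.142) and Casp9 (0.331) were lost. Without both shC tumours 1 and 2, the shC calls of Vdac3 (0.0525) and Casp6 (0.201) were lost. Of 4 inhibitors of apoptosis tested, 1 fell in each line and 0 rose (median -0.24 and -0.20). It was Birc5, at -2.28 ± 0.44 in shC (SE, adjusted p = 7.43e-04) and -1.78 ± 0.44 in shTAZ (0.00611), and its shTAZ call was lost without both shTAZ tumours 3 and 4 (-1.47, adjusted p = 0.0908).

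Of 6 death receptor genes, 1 rose in each line and 1 fell in shC (median 0.27 and 0.26). Tnfrsf1a was at 0.96 ± 0.21 in shC (SE, adjusted p = 0.00219) and 0.99 ± 0.22 in shTAZ (0.00254). Tnfrsf10b, the mouse TRAIL receptor gene, was at -1.15 ± 0.39 in shC (SE, adjusted p = 0.0286) and -0.86 ± 0.41 in shTAZ (0.121) and lost its shC call without any 1 of shC tumour 1, shC tumour 4, shC cells 1 or shC cells 2 (adjusted p 0.0520 to 0.0882). Of 10 genes of the p53 list, 3 rose and 2 fell in shC, and 2 rose and 1 fell in shTAZ (median -0.50 and -0.16). Cdkn1a (p21) was at 1.21 ± 0.30 in shC (SE, adjusted p = 0.00444) and 1.58 ± 0.31 in shTAZ (0.00113) and Sesn1 at 1.54 ± 0.40 in shC (SE, adjusted p = 0.00594) and 1.45 ± 0.41 in shTAZ (0.0136), whereas Aen, a p53-induced nuclease, had a fitted value of -5.91 ± 0.93 in shC (SE, adjusted p = 1.21e-04) with 0 to 7 counts per shC tumour and 51 to 435 per shC culture. Phlda3 was at 0.93 ± 0.32 in shC (SE, adjusted p = 0.0292) and 0.44 ± 0.32 in shTAZ (0.321), and its call was lost without any 1 of shC tumour 1, shC tumour 2, shC cells 2 or shC cells 3 (adjusted p 0.0547 to 0.127). Sesn1 in shTAZ lost its call without shTAZ cells 1 (0.0539) or shTAZ cells 3 (0.0608). Without both shTAZ tumours 3 and 4 it was lost as well (0.117). Without both shC tumours 1 and 2, the shC calls of Cdkn1a (adjusted p = 0.0511), Phlda3 (0.327) and Tnfrsf10b (0.0966) were lost.

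The list with the lowest median was that of stress and FOXO regulators, where 1 of 6 genes rose and 3 fell in shC, and 1 rose and 4 fell in shTAZ (median -1.75 and -1.93). Chac1, a glutathione-degrading target of ATF4, was at -5.43 ± 0.38 in shC (SE, adjusted p = 1.73e-08) and -5.70 ± 0.40 in shTAZ (2.30e-08), with 265 to 488 CPM in the cultures and 5.14 to 19.9 CPM in the tumours. Trib3 was at -3.23 ± 0.58 in shC (SE, adjusted p = 4.21e-04) and -3.03 ± 0.58 in shTAZ (0.00100) and Atf4 itself at -1.79 ± 0.23 in shC (SE, adjusted p = 1.72e-05) and -1.87 ± 0.23 in shTAZ (1.47e-05). Ddit3 (CHOP), a regulator of Bcl2l11 and Bbc3 in stressed cells, was at -1.71 ± 0.69 in shC (SE, adjusted p = 0.0590) and -1.99 ± 0.70 in shTAZ (0.0419), but at -0.50 in shTAZ without shTAZ cells 3 (adjusted p = 0.614), and its call was lost without any 1 of shC tumour 4, shTAZ tumour 2, shTAZ tumour 3, shTAZ tumour 4 or shTAZ cells 3, or without both shTAZ tumours 3 and 4 (0.197). Foxo1 rose 5.29-fold (95% interval 3.34 to 8.37) in shC (adjusted p = 1.92e-05) and 3.63-fold (95% interval 2.30 to 5.73) in shTAZ (adjusted p = 2.99e-04), and its level was 20.7 to 37.5 CPM in the cultures and 85.2 to 197 CPM in the tumours. Of 3 genes of MCL1 turnover tested, 1 rose in shC and 0 passed in shTAZ in edgeR (1 at an unadjusted p under 0.05, 1 in DESeq2). Btrc was at 1.42 ± 0.36 in shC (SE, adjusted p = 0.00532) and 0.75 ± 0.37 in shTAZ (0.142) and Huwe1 at -0.53 ± 0.32 in shC (SE, adjusted p = 0.199) and -0.87 ± 0.33 in shTAZ (0.0568).

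**Figure D5:**
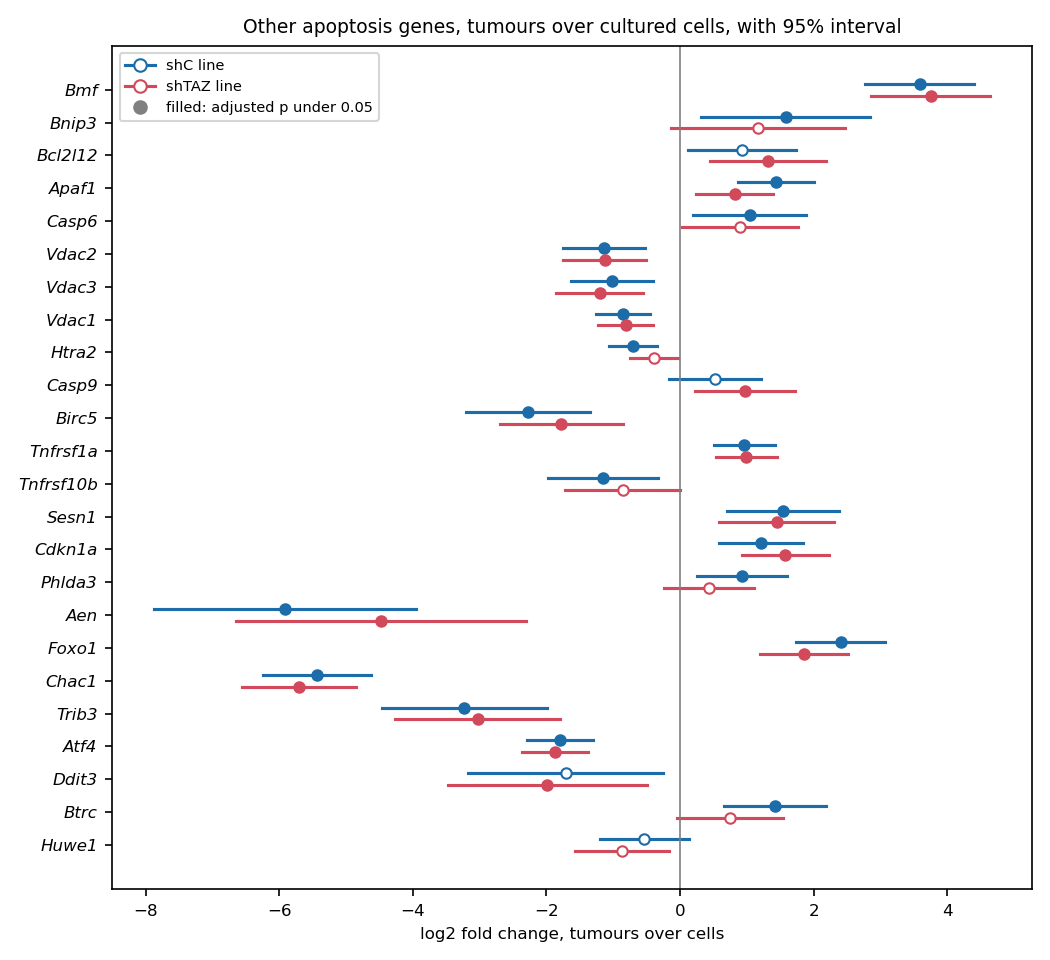
Log2 fold change of tumours over cultured cells for the named genes of the 7 lists, in both lines, with the 95% interval of edgeR's fit and filled symbols for an adjusted p under 0.05. Bmf at 3.59 and 3.75 lay at the upper end, and Chac1 at -5.43 and -5.70 and Aen at -5.91 in shC at the lower end.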

How the data were processed

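Bulk MARS-seq counts of 14 libraries of 4T1 cells were used. Per the labels and the study's methods, the authors trimmed reads with cutadapt, aligned them with STAR to GRCm38 (mm10) and counted 3′ ends per gene with HTSeq in the UTAP pipeline, and the raw counts were deposited as 1 table for tumours and 1 for cells. Both hold genes with a total of at least 6 counts. The deposited tables also hold normalized counts, log2 values, batch-corrected values, fold changes and p-values of the authors, which were not used. The strand setting is not given in the sources used here.

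Counts were tested with edgeR 4.0.16 (R 4.3.3, limma 3.58.1): TMM normalization, filterByExpr and the quasi-likelihood test, with p-values adjusted by Benjamini-Hochberg over all genes tested and a threshold of 0.05. The shTAZ and shC groups were compared within each table, with 1 surrogate variable from sva 3.50.0 for cells. That variable was estimated from counts not scaled for library size. Tumours and cells were compared, and the interaction tested, in 1 fit over the symbols shared by both tables (10684). The tables were made separately, so that levels set side by side across them carry that difference. CPM used TMM library sizes. Single genes were also compared with exact two-sided permutation tests on log2(CPM + 1). Total counts were 1659736 to 22364483, and low counts such as those of Pmaip1 are the least precise. Intervals cover 95%.

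Samples were grouped by their labels. The labels do not say that replicates came from separate cultures, so that p-values measure only the spread between these samples. Same-numbered cultures had correlations over genes of 0.29, 0.17 and 0.57 in their deviations, against -0.49 to 0.20 for other pairs of shC and shTAZ cultures. The value of 0.20, for shC cells 1 with shTAZ cells 2, was above that of the cultures numbered 2. The labels do not name pairs, but same-numbered cultures share the first part of their library codes. The replicate number was taken to pair them, and a fit with the number as a block was run as an alternative. The main fit for cells and the permutation tests did not use this pairing.

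Members and gene lists were chosen with earlier results of these data known. All members were named, and of each pathway list up to 4 genes that passed in each direction with a mean of at least 5 CPM, by size of change, or the most abundant gene where none passed. 1 gene that this rule named is not reported here. The alternatives were DESeq2 1.42.0, other filters, other surrogate variables, the replicate block, a covariate for the tumours' library code prefix, and leaving out libraries. The edgeR steps were tested on simulated data.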

Additional observations from a re-analysis of the deposited data

Results flagged for a closer look

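Bak1 in shC tumour 2 was at 134 CPM, while the other 3 shC tumours were at 102.5, 105 and 105 CPM. The gap was 0.920 of the group's range, past Dixon's 95% critical value for 4 samples, which chance passes in about 1 of 20 groups. Wwtr1 and all members were checked in both tumour groups, at both ends, and only this value was past it. It is to be read against that rate. The same library held the skeletal muscle counts (286.9 CPM summed over 3 markers), and the part of these in the Bak1 value was not tested.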

How the results depend on the processing

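For shTAZ against shC in tumours and in cells and for the interaction term together, 0 of 450 values of member genes over all settings passed an adjusted p of 0.05. Over all genes, 0 passed in tumours in edgeR and 4 in DESeq2. In cells 3 passed in DESeq2, 2 with no filter, 1 with at least 10 counts in every library, 1 with a surrogate variable from normalized counts (chosen after seeing the data), 6 with the replicate block, and 0 to 69 when 1 library was left out (69 without shC cells 3). Same-numbered tumours had correlations of 0.21, 0.13, 0.31 and -0.01, against -0.33 to 0.27 for other pairs, and the number was not taken to pair them. For shTAZ tumours over cells, 1858 genes passed with at least 10 counts in every library, and 1541 genes and 2 members without shTAZ tumours 3 and 4, a pair chosen after seeing the data. For shC tumours over cells, 2601 genes and 4 members passed without shC tumours 1 and 2, also chosen after seeing the data, and 8 calls of named genes were lost. Leaving out 1 library gave 2919 to 3690 genes and 4 to 7 members in shC, and 2050 to 3083 genes and 3 to 5 members in shTAZ. Of 1660 alternative values of single genes, 78 had the other sign, 0 of them at an adjusted p under 0.05. The cause of these changes was not tested.

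Log2 fold changes of shTAZ over shC with the other sign in tumours were -0.0056 for Mcl1 (at least 10 counts), -0.00092 with the replicate block and -0.028 with the prefix term for Perp, and -0.039 for Bad (1 surrogate variable). In cells they were 0.048 (at least 10 counts) and 0.084 (normalized-count surrogate) for Perp. Without a surrogate variable they were Bak1 0.061, Bok 0.061, Birc5 0.11, Tnfrsf1a 0.041, Perp 0.18, Atf4 -0.13 and Huwe1 -0.12. With the replicate block they were Bok 0.096, Birc5 0.055, Tnfrsf1a 0.029, Perp 0.20, Atf4 -0.13 and Huwe1 -0.16. The interaction of Bid was 0.0065 with no filter.

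Leaving out 1 library, the tumour values ranged from -0.064 to 0.14 (Mcl1), -0.080 to 0.27 (Bad), -0.15 to 0.15 (Bid), -0.22 to 0.080 (Bbc3), -0.061 to 0.19 (Tnfrsf1a) and -0.28 to 0.57 (Perp). In cells they ranged from -0.19 to 0.53 (Bcl2), -0.15 to 0.089 (Bcl2l1), -0.041 to 0.23 (Mcl1), -0.41 to 0.48 (Bax), -0.47 to 0.32 (Bak1), -0.0068 to 0.61 (Bad), -0.39 to 0.58 (Bid), -0.18 to 0.81 (Bbc3), -0.60 to 0.84 (Bok), -0.80 to 0.77 (Birc5), -0.35 to 0.34 (Tnfrsf1a), -0.15 to 0.58 (Perp), -0.48 to 0.24 (Atf4) and -0.45 to 0.29 (Huwe1). The interaction ranged from -0.28 to 0.076 (Mcl1), -0.22 to 0.35 (Bax), -0.17 to 0.47 (Bak1), -0.43 to 0.053 (Bad) and -0.30 to 0.24 (Bid). Bax in tumours over cells ranged from -0.39 to 0.16 in shC and from -0.31 to 0.16 in shTAZ.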
